A study of Mus musculus with 15 samples.

Results

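The 10 genes described here move iron, zinc and calcium into and across the cells that line the duodenum. They are Slc11a2, Cybrd1, Slc40a1, Heph and Tfrc for iron, Mt1, Mt2, Slc39a4 and Slc30a1 for zinc, and Trpv6 for calcium. They were chosen by name, as probe sets with that single gene symbol, and make up 10 of the 18820 genes measured. Each had 1 probe set, and all 10 had a mean above background.

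Duodenal organoid cells, grown as monolayers, were profiled after 6 h with casein (CAS), soybean meal (SBM), spray-dried plasma protein from pig blood (SDPP), yellow mealworm (YMW) or DMEM as the medium control (MC). The cells of all 5 groups came from female C57BL/6J mice aged 9 weeks, and the labels name no transgene or deletion. All were grown with EGF, Noggin, WNT3A and R-spondin, and a monolayer lacks the blood supply that receives absorbed metals in the animal. The labels give each source at 4% w/v, while a passage of the methods gives a far lower mass per volume. Each group has 3 arrays, and each array holds RNA of 3 pooled wells. Organoids were started from 3 mice, but no label ties an array to a mouse, so p-values measure the spread between these samples.

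Iron in food is taken up by the enterocytes of the duodenum, which reduce it at the brush border, carry it in as a divalent ion, and either store it in ferritin or export it to transferrin in the blood. Zinc follows a like route through an apical importer and a basolateral exporter, and metallothioneins bind what is held in the cell. Calcium enters through an apical channel that is known as a target of vitamin D, crosses the cell bound to a small calcium-binding protein, and is pumped out at the basolateral side.

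The promoters of Mt2, Mt1, Slc30a1 and Tfrc are shown because these genes bind or export zinc or differed most among the protein sources in the values that follow. The sequences run from 250 bases before to 50 bases after the start site and are from RefSeq, build GRCm38.p6, all on the plus strand. Metal response elements, the sites of the zinc sensor MTF1, share the core TGCACNC or TGCGCNC. Both forms were searched on both strands, and matches are in capitals in the first 3 sequences. In the Tfrc sequence the capitals mark ACGTG, the core of the sites of hypoxia-inducible factors, which was also searched on both strands.
Mt2, chr8:94172368-94172667: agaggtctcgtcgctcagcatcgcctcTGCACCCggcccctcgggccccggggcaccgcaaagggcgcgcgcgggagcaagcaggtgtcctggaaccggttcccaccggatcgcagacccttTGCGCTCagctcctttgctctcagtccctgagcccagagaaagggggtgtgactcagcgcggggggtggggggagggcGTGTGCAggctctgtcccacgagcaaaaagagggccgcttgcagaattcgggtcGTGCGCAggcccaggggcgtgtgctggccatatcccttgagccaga
Mt1, chr8:94178839-94179138: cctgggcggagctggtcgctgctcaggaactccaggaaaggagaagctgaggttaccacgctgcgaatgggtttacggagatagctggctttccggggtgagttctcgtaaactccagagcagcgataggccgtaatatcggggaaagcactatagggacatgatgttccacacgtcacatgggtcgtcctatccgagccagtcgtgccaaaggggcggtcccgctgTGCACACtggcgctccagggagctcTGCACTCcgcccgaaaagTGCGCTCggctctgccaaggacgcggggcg
Slc30a1, chr1:191906531-191906830: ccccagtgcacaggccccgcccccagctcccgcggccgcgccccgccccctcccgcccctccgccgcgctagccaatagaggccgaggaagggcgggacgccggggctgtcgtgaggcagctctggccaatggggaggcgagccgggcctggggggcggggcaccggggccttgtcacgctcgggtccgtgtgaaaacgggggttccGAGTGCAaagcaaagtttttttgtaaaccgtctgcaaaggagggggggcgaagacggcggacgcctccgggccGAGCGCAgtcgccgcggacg
Tfrc, chr16:32608646-32608945: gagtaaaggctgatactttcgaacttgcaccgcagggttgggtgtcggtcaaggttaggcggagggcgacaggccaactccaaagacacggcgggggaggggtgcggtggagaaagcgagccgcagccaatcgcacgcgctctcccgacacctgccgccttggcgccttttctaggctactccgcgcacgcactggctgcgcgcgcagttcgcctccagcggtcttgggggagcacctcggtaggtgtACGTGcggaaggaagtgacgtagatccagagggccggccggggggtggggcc
The Mt2 window held 4 matches to the metal response core, which 0.517% of all 32851 windows of the table reached. The Mt1 window held 3 (at least 3 in 1.97% of windows), and the Slc30a1 window 2 (at least 2 in 7.11%). In Mt1 they began 23 bases before and 2 and 20 bases after the RefSeq start site used for its window. Sequence outside the windows was not searched, so the counts and positions hold for these windows alone. Tfrc has 2 windows in the table. The one printed also held 2 matches, which overlap each other 53 and 50 bases before its start, and its ACGTG lay 2 bases before the start. The other, chr16:32608872-32609171, held no metal response core, and its ACGTG, 228 bases before that start, is the same site. The Mt1 window also held 1 ACGTG, on the minus strand 79 bases before the start. A core ACGTG was present in 19.6% of windows and at least 1 metal response core in 25.7%. The windows of Cybrd1 and Trpv6 held neither motif. A match is a description of the letters and not a measured site.

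Values are log2 of the RMA intensities of Affymetrix mouse gene 1.1 ST arrays, in which each probe set has its own scale. Background was taken as 3.91, a level under which 95% of 1157 chemoreceptor genes of the nose lay, and 12880 genes lay above it. The threshold is that of the methods, a change of at least 1.5-fold with an unadjusted p under 0.05, here in limma fitted to all 15 arrays. Adjusted p-values are Benjamini-Hochberg values over all genes. The MC arrays stood apart from one another. MC replicate 1 fell inside the span of the 12 treated arrays for 9 of the 10 genes, Mt1 being the exception. MC replicates 2 and 3 lay above all 12 treated arrays for 7 of the 10, all but Tfrc, Mt2 and Trpv6. The shares of all genes with these patterns were not counted, so the patterns cannot be read as particular to these genes. The mean of the enterocyte markers given below was split in the same way. Whether the label of MC replicate 1 is right could not be settled here, and it bears on every difference from the MC. The comparisons with the MC are therefore also given without MC replicate 1, a control group of 2 arrays. That array was picked because its values in these genes lay among the treated ones. Leaving it out therefore tends to widen the differences, and the calls in that fit are not separate support. Without MC replicate 2 or MC replicate 3, the calls for Heph and Slc11a2 given below were lost.

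Against the MC, Heph passed the threshold with SBM and YMW, and no other of the 10 genes did with any source. Thus 1 of 10 was lower with SBM (2.14% of all genes were), 1 with YMW (2.13%), 0 with CAS (2.04%) and 0 with SDPP (0.499%). None was higher. At an unadjusted p under 0.05 in limma, whatever the fold, 4, 3, 2 and 3 of the 10 differed from the MC with CAS, SBM, SDPP and YMW. Of all genes 16.5%, 18.2%, 12.0% and 19.0% did so, and 2 or 3 of 10 is near those shares. The median log2 difference of the 10 genes was -0.51, -0.46, -0.29 and -0.37 for CAS, SBM, SDPP and YMW, where the median of all genes lay between -0.0095 and 0.019. In the mean of the 4 sources, Slc11a2 and Heph were lower, 2 of 10 against 1.90% of all genes.

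Without MC replicate 1, 6 of the 10 genes were lower with CAS (4.48% of all genes), 6 with SBM (4.90%), 4 with SDPP (3.44%) and, for YMW, 7 (4.60%). The medians were then -0.76, -0.71, -0.44 and -0.62 for CAS, SBM, SDPP and YMW. Slc11a2, Cybrd1, Slc40a1 and Heph were lower with all 4 sources in that fit, Slc39a4 and Slc30a1 with CAS, SBM and YMW, and Trpv6 with YMW. The 4 comparisons share their MC arrays.

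**Figure D1:**
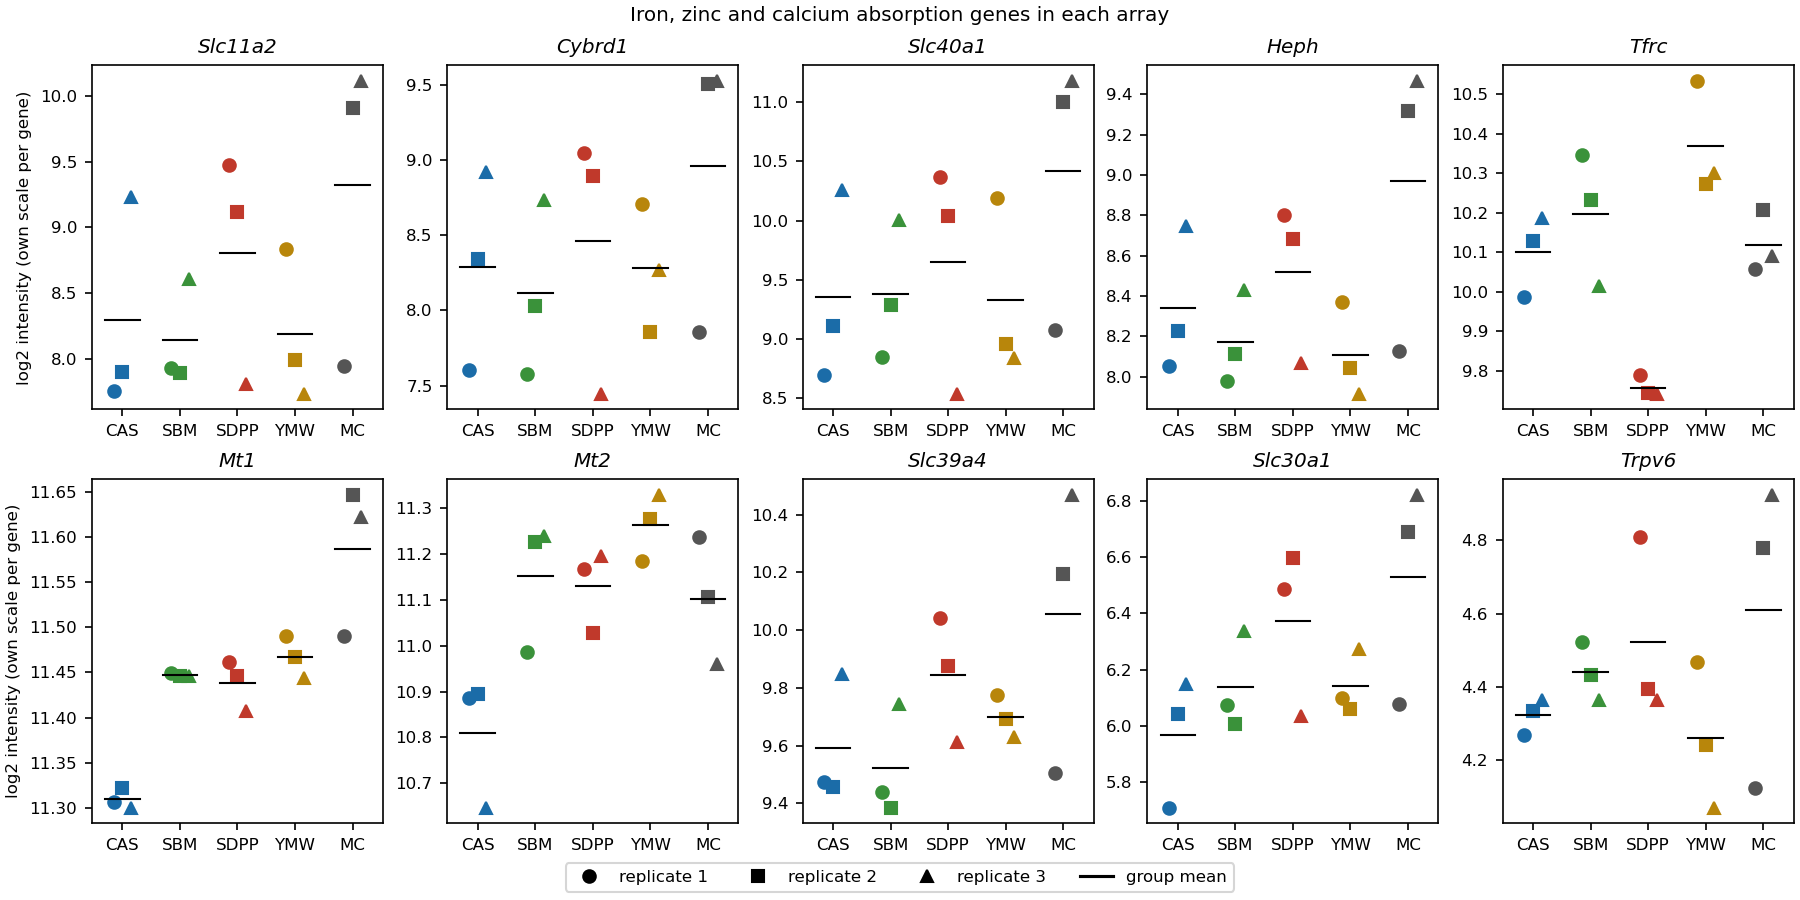
Log2 intensity of each of the 10 genes in each array, by group, with its own axis per gene; circles, squares and triangles are replicates 1, 2 and 3 and bars are group means. In the iron transport genes the MC spans more than any source, with 1 MC array among the treated arrays and 2 above them, while the 3 SDPP arrays for Tfrc and the 3 CAS arrays for Mt1 lie close together and lowest.

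At the brush border, Slc11a2 encodes the divalent metal transporter DMT1, which carries ferrous iron into the cell. Its log2 intensities were 7.76, 7.90 and 9.23 in CAS arrays, 7.93, 7.89 and 8.61 in SBM arrays, 9.48, 9.12 and 7.81 in SDPP arrays, 8.84, 7.99 and 7.73 in YMW arrays, and 7.95, 9.91 and 10.11 in MC arrays. Every source overlapped the MC, through MC replicate 1 alone, and each of CAS, SDPP and YMW held arrays more than 1 log2 unit apart. The differences of CAS, SBM, SDPP and YMW from the MC were -1.03, -1.18, -0.52 and -1.14 (SE 0.56 each, limma adjusted p = 0.284 to 0.729). For the mean of the 4 sources it was -0.97 ± 0.44 (SE), a 1.95-fold lower level, with an unadjusted p of 0.0467 and an adjusted p of 0.21. That call was lost in 9 of the 15 fits that left out 1 array: CAS replicate 1 or 2, SBM replicate 1 or 2, SDPP replicate 3, YMW replicate 2 or 3, MC replicate 2 (-0.67) or MC replicate 3 (-0.57). Once MC replicate 1 was left out, the differences were -1.72, -1.87, -1.21 and -1.82 (limma adjusted p = 0.0177, 0.0105, 0.101 and 0.0115).

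Cybrd1 encodes duodenal cytochrome b, a reductase that turns ferric into ferrous iron at the brush border. It measured 7.60, 8.34 and 8.92 in CAS arrays, 7.58, 8.03 and 8.73 in SBM arrays, 9.05, 8.89 and 7.44 in SDPP arrays, 8.71, 7.86 and 8.27 in YMW arrays, and 7.86, 9.50 and 9.53 in MC arrays. The order of arrays resembled that of Slc11a2, with CAS and SBM replicate 3, SDPP replicates 1 and 2 and YMW replicate 1 the highest of their sources. CAS, SBM, SDPP and YMW differed from the MC by -0.68, -0.85, -0.50 and -0.68 (SE 0.50 each), and none passed the threshold (limma adjusted p = 0.381 to 0.702). With MC replicate 1 left out, they were -1.23, -1.40, -1.05 and -1.24, and all 4 passed it.

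On the basolateral side, Slc40a1 encodes ferroportin, the iron exporter that hepcidin controls. The values were 8.69, 9.11 and 10.26 in CAS arrays, 8.85, 9.29 and 10.004 in SBM arrays, 10.37, 10.04 and 8.54 in SDPP arrays, 10.19, 8.95 and 8.84 in YMW arrays, and 9.08, 11.00 and 11.18 in MC arrays. MC replicates 2 and 3 were the highest arrays, and 5 treated arrays lay below MC replicate 1. For CAS, SBM, SDPP and YMW the difference from the MC was -1.06, -1.04, -0.77 and -1.09 (SE 0.60 each, limma adjusted p = 0.342 to 0.61), so these differences were within the spread of the arrays. Leaving out MC replicate 1 gave -1.73, -1.71, -1.44 and -1.76, past the threshold with all 4.

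Heph encodes hephaestin, the copper-containing ferroxidase that works beside ferroportin. It had 8.05, 8.22 and 8.75 in CAS arrays, 7.98, 8.11 and 8.43 in SBM arrays, 8.80, 8.68 and 8.07 in SDPP arrays, 8.37, 8.04 and 7.91 in YMW arrays, and 8.12, 9.32 and 9.47 in MC arrays. It was the one member past the threshold against the MC with a single source, although MC replicate 1 lay within every source's range. Heph was lower by 1.74-fold with SBM (log2 -0.80 ± 0.30 SE, unadjusted p 0.0188, limma adjusted p = 0.204). With YMW it was lower by 1.82-fold (log2 -0.86 ± 0.30 SE, unadjusted p 0.0124, limma adjusted p = 0.158). The values with CAS (log2 -0.63, 1.55-fold, unadjusted p 0.055, limma adjusted p = 0.315) and SDPP (-0.45, limma adjusted p = 0.55) did not pass. For the mean of the 4 sources the difference was -0.69 ± 0.24 (SE, limma adjusted p = 0.107).

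The Heph calls rested on the MC arrays. Without MC replicate 2 the difference was -0.62 with SBM and -0.69 with YMW, and without MC replicate 3 it was -0.55 and -0.61, all 4 short of the threshold; the call in the mean of the 4 sources was also lost (-0.51 and -0.44). That with SBM was lost without SBM replicate 1 too (-0.70), and with CAS the gene passed when CAS replicate 3 (-0.83) or SDPP replicate 3 (-0.63) was left out. Leaving out MC replicate 1 instead gave -1.05, -1.22, -0.87 and -1.28 for CAS, SBM, SDPP and YMW, at limma adjusted p-values of 0.0034, 0.00132, 0.0145 and 0.000868. Against MC replicate 1 alone, a control added after the data had been seen, they were 0.22, 0.048, 0.39 and -0.016.

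**Figure D2:**
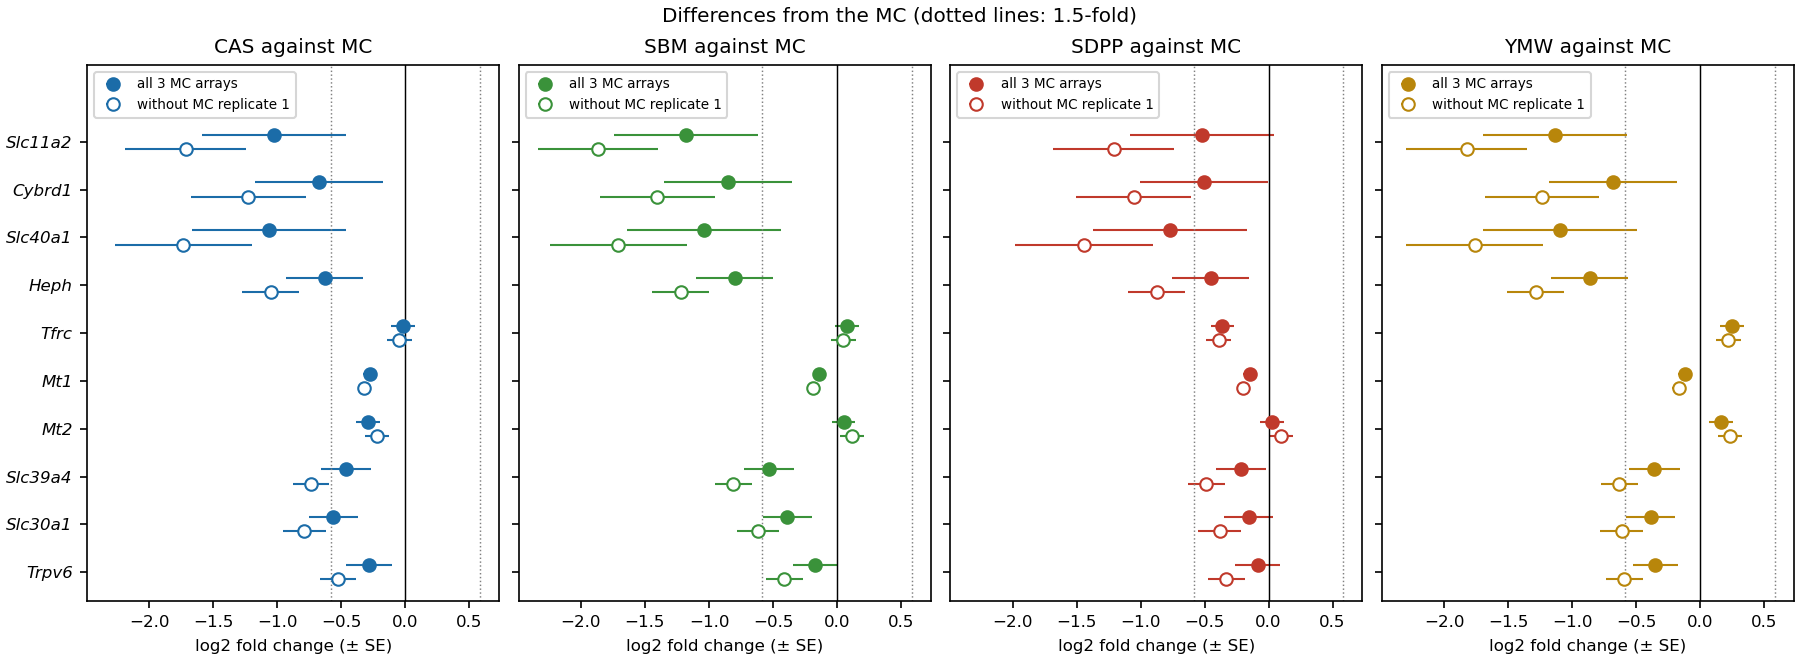
Log2 difference from the MC (± SE) of each gene with CAS, SBM, SDPP and YMW, with all 3 MC arrays (filled) and without MC replicate 1 (open); dotted lines mark 1.5-fold. Leaving out 1 MC array moves the 4 iron transport genes leftward in all 4 panels, while Tfrc, Mt1 and Mt2 stay near their first values.

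Slc11a2, Cybrd1, Slc40a1 and Heph varied together and varied widely. Over the 12 treated arrays their SDs were 0.65, 0.58, 0.69 and 0.32 log2 units, larger than those of 99.6%, 99.4%, 99.7% and 96.6% of the 12880 genes above background, whose median was 0.135. The 6 pairwise Pearson correlations over these arrays were 0.870 to 0.964, and 0.894 to 0.989 once each source's mean was removed. These points share the array and all that sets it apart, and 3 arrays of a source are not 3 conditions.

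The mean of markers of the absorptive cell moved with these 4 genes. Over the 12 treated arrays the mean of the 4 followed the mean of 14 enterocyte markers with r = 0.984 (Spearman's rho 0.958, within sources 0.993). The enterocyte mean spanned 8.44 to 9.97 in treated arrays, and was 8.63, 10.34 and 10.39 in the MC arrays. Alpi, intestinal alkaline phosphatase, spanned 11.35 to 12.48 in treated arrays and had 11.58, 12.76 and 12.83 with MC. MC replicate 1 was thus among the treated arrays in the enterocyte mean as in iron genes. Not every marker of the list set MC replicates 2 and 3 apart. Anpep spanned 8.09 to 9.98 in treated arrays and had 8.29, 8.91 and 9.11 with MC. For Dpp4 the values were 7.004 to 7.505 in treated arrays and 7.066, 7.267 and 7.375 with MC.

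The mean of 10 crypt base stem cell markers was lowest in MC replicates 2 and 3, at 8.41 to 8.82 in treated arrays and 8.70, 7.95 and 7.45 in MC arrays, and that of 7 cycling markers was 8.70 to 9.11 in treated arrays and 9.10, 8.11 and 7.56 in MC arrays. Against the MC, 3, 5, 1 and 4 of 14 enterocyte markers were lower with CAS, SBM, SDPP and YMW. The shares of all genes that were lower were 2.04%, 2.14%, 0.499% and 2.13%. Of 7 cycling markers, 6 were higher with CAS (1.82% of all genes), 6 with SBM (1.37%), 5 with SDPP (1.13%) and 4 with YMW (1.74%). With each source 3 of 10 stem cell markers were higher. In RNA from whole monolayers, fewer cells of a type and less RNA per cell cannot be told apart, and the part of these markers in the iron gene values was not tested. Of markers of other tissues, 0 of 4 endothelial, 3 of 6 leukocyte and 4 of 8 mesenchymal ones lay above background. Among these, Lyz2 spanned 5.86 to 6.79 in treated arrays and had 6.68, 6.23 and 5.90 in MC arrays, while Ptprc, which defines leukocytes, was below background in all arrays.

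**Figure D3:**
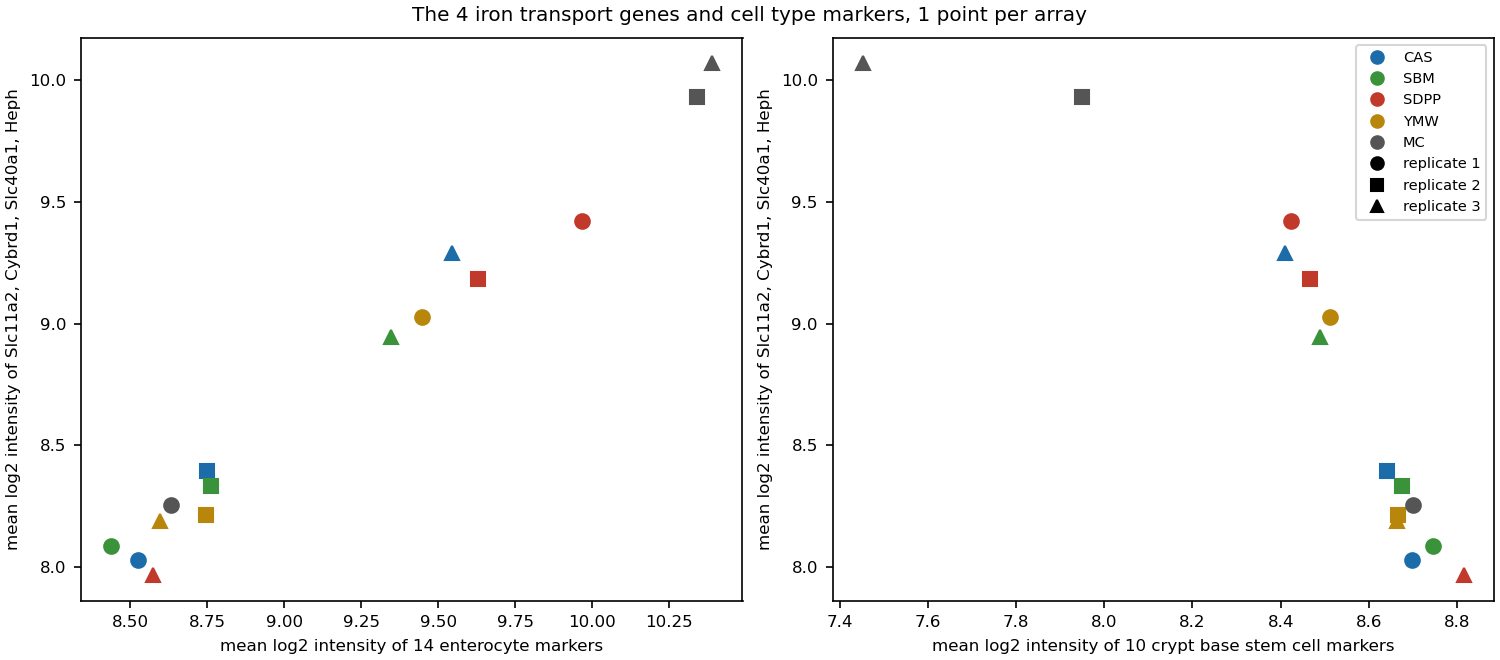
Mean log2 intensity of Slc11a2, Cybrd1, Slc40a1 and Heph (vertical axis) against the mean of 14 enterocyte markers (left) and of 10 crypt base stem cell markers (right), 1 point per array, coloured by group. On the left the points follow 1 rising line, with MC replicates 2 and 3 at its upper end and MC replicate 1 among the low treated arrays, and on the right MC replicates 2 and 3 stand apart at low stem cell marker levels.

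Tfrc encodes transferrin receptor 1, which takes up iron bound to transferrin, and whose mRNA carries iron-responsive elements that stabilize it when cell iron is low. It behaved unlike the 4 transport genes. Its values were 9.99, 10.13 and 10.19 in CAS arrays, 10.35, 10.23 and 10.02 in SBM arrays, 9.79, 9.74 and 9.74 in SDPP arrays, 10.53, 10.27 and 10.30 in YMW arrays, and 10.06, 10.21 and 10.09 in MC arrays. All 3 SDPP arrays lay below every other array of the series, and all 3 YMW arrays above every MC array. SDPP arrays all lay below the 9 arrays of the other sources in 0.324% of genes and below the 3 MC arrays in 5.89%, and YMW arrays all lay above the MC in 7.42%.

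By group mean the order of Tfrc from high to low was YMW (10.37 ± 0.14), SBM (10.20 ± 0.17), CAS (10.10 ± 0.10) and SDPP (9.76 ± 0.027), with the MC at 10.12 ± 0.078 (SD, n = 3 each). The neighbours YMW and SBM differed by 0.17 (limma adjusted p = 0.947), and SBM and CAS by 0.097 (adjusted p = 1), so they were not told apart. SDPP minus CAS, the lowest neighbours, was -0.34 (unadjusted p 0.00227, limma adjusted p = 0.923), which was not past the adjusted threshold either. SDPP against the other 3 sources differed by -0.46 ± 0.08 (SE, unadjusted p 2.29e-05), the smallest p of all 18820 genes in that comparison. Adjusted over all genes it was 0.432, and the 1.38-fold change was below the threshold. YMW against the others differed by 0.35 ± 0.08 (SE, unadjusted p 0.000372, limma adjusted p = 0.32).

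In the moderated F-test among the 4 sources, Tfrc had an unadjusted p of 9.16e-05 (limma adjusted p = 0.143, rank 11 of all genes). There 859 genes, or 4.56%, had an unadjusted p under 0.05 and 8, or 0.0425%, an adjusted one. None of the 10 genes reached an adjusted p under 0.05 in that test, and Mt2 (0.00151) and Mt1 (0.0292) were the others with an unadjusted one. Tfrc reached it with a second quantile normalization (0.0489), with array weights (0.0187) and without SBM replicate 3 (0.0483).

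Against the MC (SE 0.09), Tfrc differed by -0.02 with CAS and 0.08 with SBM. It was at -0.36 with SDPP (unadjusted p 0.00158, limma adjusted p = 0.315) and at 0.25 with YMW (unadjusted p 0.0167, limma adjusted p = 0.175). The widest contrast was between sources. YMW exceeded SDPP by 0.61 ± 0.09 (SE) on the log2 scale, or 1.53-fold (95% interval 0.41 to 0.81, unadjusted p 1.07e-05, limma adjusted p = 0.201), which passed the threshold, as 0.0531% of all genes did for that pair. Without YMW replicate 1 it was 0.53, below 1.5-fold. Removing MC replicate 1 left the differences with SDPP and YMW at -0.39 (limma adjusted p = 0.015) and 0.22. The correlation of Tfrc with the enterocyte mean over the 12 treated arrays was -0.281, or 0.169 within sources.

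**Figure D4:**
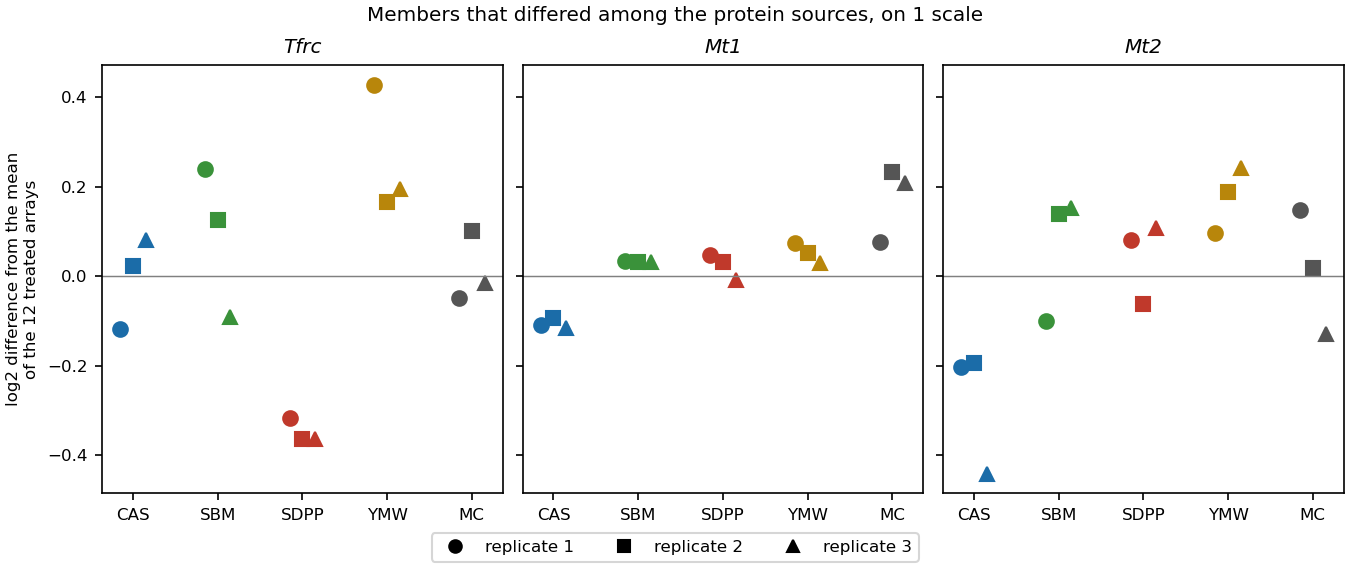
Log2 difference of Tfrc, Mt1 and Mt2 from their mean over the 12 treated arrays, on 1 shared scale; circles, squares and triangles are replicates 1, 2 and 3. SDPP lies lowest for Tfrc and YMW highest, while CAS lies lowest for Mt1 and Mt2 and all treated arrays lie below the MC for Mt1, YMW replicate 1 by very little.

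Mt1 and Mt2 encode metallothioneins, small cysteine-rich proteins that bind zinc and copper and that metals induce through MTF1. Mt1 had 11.31, 11.32 and 11.30 in CAS arrays, 11.45 in all 3 SBM arrays, 11.46, 11.45 and 11.41 in SDPP arrays, 11.49, 11.47 and 11.44 in YMW arrays, and 11.49, 11.65 and 11.62 in MC arrays. All 12 treated arrays lay below all 3 MC arrays, YMW replicate 1 (11.4903) only just below MC replicate 1 (11.4906), and all 3 CAS arrays below the other 9 treated ones. Mt2 had 10.89, 10.89 and 10.65 in CAS arrays, 10.99, 11.23 and 11.24 in SBM arrays, 11.17, 11.03 and 11.20 in SDPP arrays, 11.19, 11.28 and 11.33 in YMW arrays, and 11.24, 11.11 and 10.96 in MC arrays. Its CAS arrays were again below all the others, MC included, whereas the 3 other sources overlapped the MC.

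In 2 of the 10 genes, Mt1 and Mt2, the CAS arrays lay below the 9 arrays of the other sources, which held for 0.834% of all genes, and below the MC, which held for 7.59%. For Mt1, SBM, SDPP and YMW arrays also lay below the MC, as in 8.96%, 5.89% and 7.12% of genes. The share of genes with all 12 treated arrays below the MC was not counted. Mt1 was the least variable of the 10 genes, with an SD over treated arrays of 0.067 that exceeded 5.32% of genes above background. Its value was identical, 11.4464, in SBM replicates 2 and 3 and SDPP replicate 2, and what such ties reflect was not tested.

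Mt1 differed from the MC by -0.28 ± 0.05 (SE) with CAS, a 1.21-fold change with a limma adjusted p of 0.0341, the one adjusted value under 0.05 among the 10 genes against the MC with any single source. With CAS 0.654% of all genes reached that. For SBM, SDPP and YMW the difference was -0.14, -0.15 and -0.12 (limma adjusted p = 0.195, 0.359 and 0.224). For the mean of the 4 sources it was -0.17 ± 0.04 (SE, limma adjusted p = 0.0498, which 1.52% of genes reached). These small differences depended on the scaling. After a second quantile normalization Mt1 differed by -0.14 with CAS (adjusted p 0.188), by 0.0022 with SDPP and by 0.029 with YMW, and after centring each array on its median by -0.32 with CAS (adjusted p 0.0514). Over 23 alternatives the value with CAS stayed between -0.33 and -0.14, with an adjusted p under 0.05 in 10 of them. Without MC replicate 1 it was -0.33 (adjusted p 0.000285), without MC replicate 2 it was -0.25 (0.183) and without MC replicate 3 it was -0.26 (0.139), and the adjusted p was also above 0.05 with 1 prior variance for all genes (0.0773), in the arrays of CAS and MC alone (0.509), and without any 1 of the CAS arrays, SBM replicate 2 (0.0588), SDPP replicate 2 (0.0579) or YMW replicate 2 (0.0548).

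Mt2 with CAS was lower than with the other 3 sources by 0.37 on the log2 scale (-0.37 ± 0.08 SE, 1.29-fold, unadjusted p 0.000222, limma adjusted p = 0.114, rank 34 of all genes). Mt1 differed in the same comparison by -0.14 ± 0.04 (SE, unadjusted p 0.00403, limma adjusted p = 0.475). Neither reached 1.5-fold. Against the MC, Mt2 differed by -0.29 with CAS (limma adjusted p = 0.143), and by 0.051, 0.029 and 0.16 in SBM arrays, SDPP and YMW. Group means of Mt2 ran from YMW (11.26 ± 0.073) through SBM (11.15 ± 0.14) and SDPP (11.13 ± 0.091) to CAS (10.81 ± 0.14), with the MC at 11.10 ± 0.14 (SD, n = 3 each), and the first 3 did not differ beyond their spread. The genes are close relatives, and the share of signal that each probe set takes from the other transcript was not tested.

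Among the zinc carriers, Slc39a4 encodes ZIP4, the importer of the brush border. It measured 9.47, 9.46 and 9.85 in CAS arrays, 9.44, 9.39 and 9.74 in SBM arrays, 10.04, 9.87 and 9.61 in SDPP arrays, 9.78, 9.69 and 9.63 in YMW arrays, and 9.51, 10.19 and 10.47 in MC arrays. As in the iron genes, MC replicates 2 and 3 were above all treated arrays and MC replicate 1 among them. The difference from the MC was -0.46 with CAS (unadjusted p 0.0328, limma adjusted p = 0.251), -0.53 with SBM (unadjusted p 0.0162, limma adjusted p = 0.198), and -0.21 and -0.36 with SDPP and YMW (SE 0.20 each), all below 1.5-fold. In the fit without MC replicate 1 they were -0.74, -0.81, -0.49 and -0.63, past the threshold with all but SDPP. Its correlations with the 4 iron transport genes over the 12 treated arrays were 0.774 to 0.887.

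Slc30a1 encodes ZnT1, which exports zinc and whose transcript zinc is known to induce. The arrays gave 5.71, 6.04 and 6.15 in CAS arrays, 6.07, 6.01 and 6.34 in SBM arrays, 6.49, 6.60 and 6.04 in SDPP arrays, 6.10, 6.06 and 6.27 in YMW arrays, and 6.08, 6.69 and 6.82 in MC arrays. All sources overlapped the MC, and CAS replicate 1 was the lowest array. The gene differed from the MC by -0.56 ± 0.19 (SE) with CAS, 1.48-fold and thus just short of the threshold (unadjusted p 0.0105, limma adjusted p = 0.162). The values with SBM, SDPP and YMW were -0.39, -0.16 and -0.39 (limma adjusted p = 0.295, 0.763 and 0.289). With MC replicate 1 left out, CAS, SBM, SDPP and YMW stood at -0.79, -0.62, -0.38 and -0.61, past the threshold with all but SDPP.

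Trpv6, the apical calcium channel, lay close to background (3.91). It had 4.27, 4.33 and 4.37 in CAS arrays, 4.52, 4.43 and 4.37 in SBM arrays, 4.81, 4.39 and 4.37 in SDPP arrays, 4.47, 4.24 and 4.07 in YMW arrays, and 4.12, 4.78 and 4.92 in MC arrays. MC replicate 1 was below 11 of the 12 treated arrays, and SDPP replicate 1 above MC replicate 2. No difference from the MC passed the threshold, at -0.29, -0.17, -0.086 and -0.35 for CAS, SBM, SDPP and YMW (SE 0.18 each, limma adjusted p = 0.304 to 0.873). Without MC replicate 1 the gene was 1.51-fold lower with YMW (log2 -0.59, limma adjusted p = 0.00756), and CAS, SBM and SDPP differed by -0.53, -0.41 and -0.33. Near background a change can be understated.

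Between the sources, 0 of the 10 genes passed the threshold against the other 3 sources with CAS (0.159% of all genes did), SBM (0.0266%), SDPP (0.0159%) or YMW (0.0691%). At an unadjusted p under 0.05 in limma, Mt1 and Mt2 differed with CAS (5.36% of all genes did), none of the 10 with SBM (4.83%), Tfrc with SDPP (2.42%), and Tfrc and Mt2 with YMW (5.50%). The 4 iron transport genes had their highest source mean with SDPP, but the intervals were wide. Slc11a2 with SDPP differed from the other sources by 0.59 (95% interval -0.39 to 1.57, limma adjusted p = 1), and Heph by 0.31 (-0.22 to 0.84).

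Other genes of metal handling were taken from lists of 32 iron, 23 zinc, 20 calcium and 7 copper genes, of which 29, 23, 19 and 7 were measured. Of the iron genes, 3, 4, 0 and 2 were lower with CAS, SBM, SDPP and YMW, and 1, Lcn2, was higher with each. Of the calcium genes, 1, 2, 0 and 2 were lower in the same order, and no zinc or copper gene passed the threshold. With all MC arrays, no gene of these lists had a limma adjusted p under 0.05 with any source. The calls named below therefore rest on unadjusted p-values. When 1 source was set against the others, no gene of these lists passed the threshold, so the calls are not differences between sources. Among all genes, 2.04%, 2.14%, 0.499% and 2.13% were lower in that order, and 1.82%, 1.37%, 1.13% and 1.74% higher. At an unadjusted p under 0.05 in limma, the counts for CAS, SBM, SDPP and YMW were 9, 12, 3 and 11 of 29 iron genes, 4, 5, 1 and 4 of 23 zinc genes, 3, 4, 1 and 2 of 19 calcium genes, and 0, 1, 0 and 1 of 7 copper genes. The shares of all genes, 16.5%, 18.2%, 12.0% and 19.0%, put the zinc and calcium counts near or below the background. The median differences of the iron list were -0.016, -0.12, -0.055 and -0.013 for CAS, SBM, SDPP and YMW, where the medians of all genes were -0.0023, -0.0095, 0.0033 and 0.019. Without MC replicate 1, 5 iron genes were lower with each source, while CAS had 2, SBM 3, SDPP 3 and YMW 5 that were higher, so that with YMW as many were higher as lower. Of the zinc genes 2, 2, 1 and 2 were lower and 1 was higher with each source, of the calcium genes 4, 3, 3 and 4 were lower and 0 higher, and of the copper genes 0 passed either way. In that fit 4.48%, 4.90%, 3.44% and 4.60% of all genes were lower and 4.59%, 4.50%, 3.89% and 4.93% higher.

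Slc46a1 encodes a folate transporter that has also been described as carrying haem. It spanned 6.58 to 7.96 in treated arrays (median 6.80) and had 6.73, 8.92 and 9.21 with MC. It was lower with CAS (log2 -1.30), SBM (-1.39) and YMW (-1.42; limma adjusted p = 0.216, 0.195 and 0.164), and had -0.93 with SDPP. Abcg2, an efflux pump that carries porphyrins, was lower with the same 3 sources (-0.83, -0.71 and -0.85), and spanned 6.29 to 7.30 in treated arrays against 6.77, 7.83 and 7.92 with MC. Slc39a14, the ZIP14 importer of iron and zinc, was lower with CAS (-0.81) and SBM (-0.87), and Epas1, the hypoxia-inducible factor that drives iron absorption genes in mouse duodenum, with SBM (-0.65). In all of these MC replicate 1 lay among the treated arrays.

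Lcn2, lipocalin 2, which binds the iron carriers of bacteria, was higher with CAS, SBM, SDPP and YMW by 0.61, 0.89, 1.06 and 0.88 on the log2 scale (limma adjusted p = 0.261, 0.168, 0.314 and 0.129). It spanned 4.63 to 5.60 in treated arrays and had 4.92, 3.98 and 3.74 with MC, the last below background. Among calcium genes, S100g, calbindin-D9k, was lower with SBM (-1.46) and YMW (-1.59), at 9.11 to 11.23 in treated arrays and 9.21, 12.13 and 12.26 in MC arrays. Atp2b1, the plasma membrane calcium pump, was lower with CAS (-0.72), SBM (-0.73) and YMW (-0.74). Fth1, the ferritin heavy chain, did not pass the threshold and had 12.11 to 12.48 in treated arrays and 12.29, 12.67 and 12.78 in MC arrays, and Ncoa4, the receptor for ferritin breakdown, 10.64 to 11.44 and 10.70, 11.76 and 11.89.

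**Figure D5:**
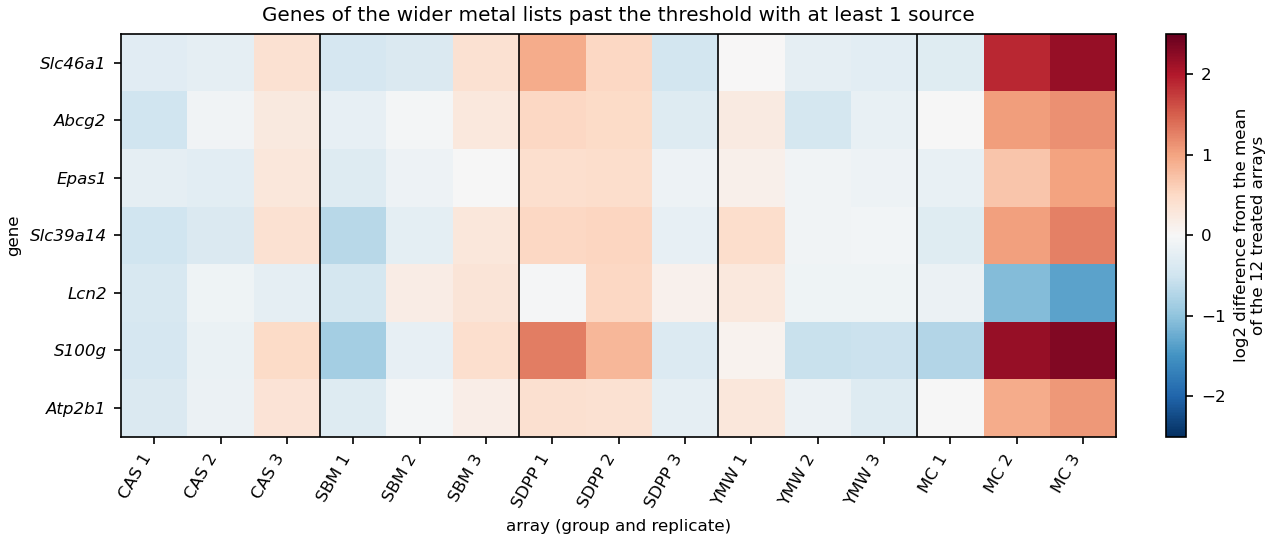
Log2 difference from the mean of the 12 treated arrays for the 7 genes of the wider iron and calcium lists that passed the threshold with at least 1 source, 1 column per array. MC replicates 2 and 3 stand apart in every row, Lcn2 in the opposite direction, and MC replicate 1 resembles the treated arrays.

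The genes whose pattern over the 12 treated arrays was most like each member's were named by Pearson's r among genes above background, as a description of arrays that share their source. Genes with predicted or clone-based names, chemoreceptor genes of the nose and small RNAs were left out of that ranking. Slc11a2 was followed by Lipa and Iqgap2 (0.988 each), Slc40a1 by Cyp2c55 (0.988) and Ceacam18 (0.981), and Heph by Slc25a24 (0.985) and Slc15a1 (0.976). Cybrd1 was followed by Mdh2 and Plekhb2 (0.963 each), Slc39a4 by Porcn (0.981) and Slc44a4 (0.979), Slc30a1 by Dolpp1 (0.912) and Rer1 (0.901), and Trpv6 by Nek8 (0.921) and Cycs (0.893). For Trpv6, close to background, Spearman's rho was lower, at 0.725 with both genes. For Tfrc the values of Pearson's r were lower than for these members, at 0.847 for Il27 and 0.812 for Nmt1, and within sources they were 0.565 and 0.269. Mt1 was most like Ugt2b35 (0.920) and Sema3c (0.912), and Mt2 like Ppif (0.874) and Lyve1 (0.857), with 0.411, 0.604, 0.679 and 0.519 within sources.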

How the data were processed

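The authors hybridised RNA to Affymetrix mouse gene 1.1 ST arrays and deposited 1 table of intensities for the whole series, made from the arrays by RMA (background correction, quantile normalization and a summary per probe set; version not given in the sources used here). The values are linear, although RMA usually returns log2 values, and were turned to log2 here without a pseudocount. Of 35556 probe sets, 21218 had 1 gene symbol, 1881 several and 12457 none, and the probe set with the highest mean stood for each of 18820 genes. The members and lists were chosen with earlier results of these data known.

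Groups came from the sample labels. limma 3.58.1 in R 4.3.3 was fitted to 5 group means with trended eBayes, as the methods use moderated linear models, and tested on simulated data. All 10 members are named, with the listed metal genes past the threshold against the MC, up to 3 further genes of each list by mean, up to 3 markers of a list, and the 2 genes most like each member. Alternatives were another prior variance, a replicate block, the arrays of the compared groups alone, genes above background alone, other scalings, array weights, the mean of a gene's probe sets, no fold threshold, leaving out each array and, added after seeing the data, MC replicate 1 as the sole control. RefSeq promoter windows were matched by symbol for 6 members, and Slc11a2, Slc40a1, Heph and Slc39a4 had none. The number of arrays, 3 in a group, limits the precision.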

Additional observations from a re-analysis of the deposited data

Results flagged for a closer look

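Tfrc differed in direction between 2 sources set against the same 3 MC arrays. All 3 YMW arrays (10.53, 10.27 and 10.30) lay above and all 3 SDPP arrays (9.79, 9.74 and 9.74) below every MC array (10.06, 10.21 and 10.09). YMW arrays all lay above the MC in 7.42% of genes and SDPP arrays all below it in 5.89%. The share of genes with both was not counted. Neither difference from the MC passed the threshold, at 0.25 with YMW (limma adjusted p = 0.175) and -0.36 with SDPP (limma adjusted p = 0.315). The difference itself, YMW minus SDPP, was 0.61 on the log2 scale (95% interval 0.41 to 0.81, limma adjusted p = 0.201), and it stayed between 0.53 and 0.66 over 22 alternatives, with adjusted p-values of 0.0542 to 1.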

How the results depend on the processing

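The values showed no pairing of the arrays by replicate number, which does not settle whether equal numbers mark the same mouse. Deviations of same-numbered arrays from their group means had a median correlation of -0.161 over 30 pairs (-0.686 to 0.537), and 2 of 15 arrays were most like an array of their own number. With the number as a replicate block, the count of members past the threshold in the mean of the 4 sources was 1 instead of 2, and every other count was as without the block. The adjusted p of Mt1 with CAS was 0.0743 with the block, above 0.05, against 0.0341 without it.

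Other settings moved the counts as follows. With the arrays of the 2 groups alone, SBM had 0. With genes above background alone, the mean of the 4 sources had 1. After a second quantile normalization CAS, the mean of the 4 sources and the F-test among sources had 1 each, and after median centring CAS had 1. Array weights, whose fit did not fully converge, gave 6 members for CAS, 5 for SBM, 4 for SDPP, 4 for YMW, 4 for the mean, 1 for SDPP against the other sources and 1 in the F-test. Without a fold threshold the counts were 4 for CAS, 3 for SBM, 2 for SDPP, 3 for YMW and 5 for the mean, and against the other sources 2 for CAS, 1 for SDPP and 2 for YMW. The shares of all genes were 16.5%, 18.2%, 12.0%, 19.0% and 23% against the MC, and 5.36%, 2.42% and 5.50% against the other sources. Leaving out 1 array gave 0 to 6 for CAS, 0 to 6 for SBM, 0 to 4 for SDPP, 0 to 7 for YMW, 0 to 6 for the mean, 0 to 1 for SDPP against the other sources (1 without SDPP replicate 3) and 0 to 1 in the F-test. The highest of these counts against the MC came without MC replicate 1. For the other settings here, the shares of all genes were counted only without MC replicate 1, and only for single sources. The other counts, those with array weights included, therefore cannot be read as particular to these genes.

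Some differences from the MC changed sign. Leaving out 1 array, Tfrc with CAS spanned -0.060 to 0.040, Mt2 with SBM -0.020 to 0.13, and with SDPP Cybrd1 spanned -1.05 to 0.0080, Mt2 -0.041 to 0.098, Slc30a1 -0.38 to 0.013 and Trpv6 -0.33 to 0.072. After the second quantile normalization Tfrc was 0.10 with CAS, and Mt1 0.0022 with SDPP and 0.029 with YMW. Median centring put Mt2 at -0.035 with SDPP, and array weights put Tfrc at -0.0026 with SBM.

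Against MC replicate 1 alone, added after seeing the data, SBM, YMW and the mean had 0 members past the threshold, and most members turned. CAS gave 0.35 for Slc11a2, 0.43 for Cybrd1, 0.28 for Slc40a1, 0.22 for Heph, 0.044 for Tfrc, 0.088 for Slc39a4 and 0.20 for Trpv6. SBM gave 0.20 for Slc11a2, 0.25 for Cybrd1, 0.30 for Slc40a1, 0.048 for Heph, -0.086 for Mt2, 0.017 for Slc39a4, 0.062 for Slc30a1 and 0.32 for Trpv6. SDPP gave 0.85 for Slc11a2, 0.60 for Cybrd1, 0.57 for Slc40a1, 0.39 for Heph, -0.11 for Mt2, 0.34 for Slc39a4, 0.30 for Slc30a1 and 0.40 for Trpv6. YMW gave 0.24 for Slc11a2, 0.42 for Cybrd1, 0.25 for Slc40a1, 0.19 for Slc39a4, 0.067 for Slc30a1 and 0.14 for Trpv6. The mean gave 0.41 for Slc11a2 and 0.16 for Heph. The lone control array is assumed to vary like the other groups, and the cause of its distance from the other 2 was not tested.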
